A study of Mus musculus with 2 samples.

Results

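The 9 genes described here encode ligands of the tumor necrosis factor (TNF) superfamily that T cells can make: *Cd40lg*, *Tnfsf8*, *Tnfsf11*, *Tnfsf14*, *Cd70*, *Fasl*, *Tnf*, *Lta* and *Ltb*. They were chosen by name, with no threshold on their levels but with earlier results of these data known, among the 31053 mouse genes of 1 single-cell gene expression library. Ligands of this family are mostly trimeric proteins held in the cell membrane, some of which are shed by proteases, and they act on receptors of the TNF receptor superfamily on neighboring cells. Some of these receptors carry a death domain and can trigger apoptosis, whereas others recruit TRAF adaptor proteins and activate NF-κB. In tumors, T cells use these ligands to license dendritic cells and macrophages, to kill target cells and to costimulate or restrain other T cells.

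Both groups of the study were tumor-bearing mice of C57BL/6 background without treatment, whose age and number are not given in the sources used here. One group carried B16, a mouse melanoma line, and the other B16IL33, the same line engineered to overexpress the secreted form of interleukin-33, so that the comparison is one of cytokine excess in a transplanted tumor. On day 9, cells marked with 4 hashtag antibodies (numbered 1 and 2 for each tumor) were sorted for TCR-β, by the methods of the study as CD4 and CD8 T cells, and pooled for a single 10x 5′ run, which also yielded TCR and hashtag sequences. The gene expression library held 14035 barcodes with 43420305 unique molecular identifiers (UMIs) on mouse genes. The pool is a single sample without replicates, and cells are not replicates, so no test is made. Ranges in parentheses are 95% intervals, exact Poisson for levels in CPM (the UMIs of a gene, summed over the cells of a group, scaled to a fixed total of UMIs), exact binomial (Clopper-Pearson) for shares of cells and exact conditional binomial for ratios of levels, and they cover counting error only. A gene with a count of 0 could have had up to 3 counts, and that floor is given as CPM or as a bound on the ratio where a level rests on it.

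Barcodes with 200 to 2500 detected genes and under 5% mitochondrial UMIs numbered 9078. CD8 T cells were taken as barcodes with more *Cd8a* and *Cd8b1* than *Cd4* and *Foxp3* UMIs (1260 cells, median 3462 UMIs). Regulatory T (Treg) cells had a *Foxp3* UMI and no CD8 UMI (2609 cells, median 2780 UMIs), and conventional CD4 T (Tconv) cells had a *Cd4* UMI and neither *Foxp3* nor CD8 (1769 cells, median 2498 UMIs). NKT cells had a UMI of *Zbtb16*, which encodes the transcription factor PLZF, and no *Foxp3* or CD8 (81 cells, median 2939 UMIs). Myeloid cells had a UMI of *Csf1r*, the receptor of macrophage colony-stimulating factor, and no *Cd3e* (129 cells, median 4863 UMIs). A class was met by 64.0% of the kept barcodes, and 3270 barcodes, 81.8% of them with *Cd3d* or *Cd3g*, met none.

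Markers outside the rules were read next to check the labels, with limits for Tconv and NKT cells; the *Cd8a* and *Cd8b1* markers of CD8 T cells are their rule and check nothing. The T cell genes *Cd3d*, *Cd3g*, *Trac*, *Lck* and *Cd247* summed to 3196 CPM in CD8, 3394 CPM in Treg, 3183 CPM in Tconv and 2731 CPM in NKT cells, against 148 CPM in myeloid cells. *Ctla4*, a Treg effector gene, stood at 1187 CPM in Treg, 421 CPM in Tconv and 230 CPM in CD8 T cells. *Il2ra*, *Ikzf2*, *Ctla4* and *Tnfrsf18*, Treg markers that activated T cells can also carry, summed in Tconv cells to 36.8% of their Treg level, led by *Tnfrsf18* at 520 CPM, so Treg cells without a *Foxp3* UMI and activated Tconv cells cannot be told apart there. Of the 27 NKT cells with a productive TCR alpha chain, 16 carried the invariant Trav11-Traj18 chain that defines invariant NKT cells, and 21 NKT cells also met the Tconv rule. The gamma delta T cell genes *Tcrg-C1* and *Tcrg-C2* reached 43.1 and 75.5 CPM in NKT cells, against 4.18 and 4.38 CPM in Tconv cells, whereas *Trdc* had 1 UMI there. All 62 kept cells with the invariant chain were therefore measured beside the NKT class. The TCR-β sort should have removed myeloid cells, and 4 of the 129 also met the Tconv rule, 9 the Treg and 5 the CD8 rule.

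Myeloid cells served as a class that should lack T cell transcripts; since their rule asks for no *Cd3e* UMI, barcodes with T cell RNA were partly removed, and the shares given here may be too low. The myeloid level was 4.67% of the T cell level for *Cd3d* (3.25 to 6.49%), 4.56% for *Cd3g* (3.03 to 6.59%), 4.12% for *Trac* (2.25 to 6.91%) and 5.31% for *Lck* (2.97 to 8.76%), over CD8, Treg and Tconv cells together. In the other direction, the T cell level was 1.52% of the myeloid level for *Lyz2*, the macrophage lysozyme, and 2.06% for *Cd14*. It was 2.88% for *Apoe*, 3.17% for *Cd68* and 3.34% for *C1qb*. *Ltb*, at 4.43% (3.03 to 6.26%), lay within this range in myeloid cells, so its signal there is read as background. *Tnf*, at 185% (124 to 266%), and *Tnfsf14*, at 124% (44.6 to 276%), lay far above it. *Cd40lg*, *Tnfsf11* and *Cd70* had 0 UMIs in myeloid cells, which allows up to 4.62 CPM, and *Tnfsf8*, *Fasl* and *Lta* had 1 UMI each. Of the 36 pairs of a ligand and a T cell class, 22 lay above the myeloid level beyond counting error, a share that was not taken over all genes. The pairs that did not separate from it were *Tnfsf11* in CD8 and NKT cells, *Cd70* in Treg, Tconv and NKT cells, *Fasl* in Treg cells, *Tnfsf8* in NKT cells, *Tnfsf14* in CD8 and Tconv cells and *Tnf* in Tconv and NKT cells. *Tnf* in CD8 and Treg cells and *Tnfsf14* in Treg cells lay below it.

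Among the 3 large T cell classes, Tconv cells had the highest level of *Cd40lg*, *Tnfsf8*, *Tnfsf11*, *Tnf* and *Lta*, CD8 T cells of *Fasl*, *Tnfsf14* and *Cd70*, and Treg cells of *Ltb*. For *Tnfsf14* and *Cd70* the CD8 and Tconv levels did not differ beyond counting error, and the CD8 to Tconv ratio of *Tnfsf14* turned from 1.13 to 0.753 without the upper limit on detected genes and to 0.976 with at most 1 UMI per cell. Treg cells lay below Tconv cells by at least 2-fold in 6 of the 9 ligands (*Cd40lg*, *Tnfsf8*, *Tnfsf11*, *Tnfsf14*, *Fasl* and *Tnf*) and above them in 0; of 10717 genes with at least 20 UMIs in both classes together, 8.80% differed 2-fold either way. Against the 447 Tconv cells without a UMI of the 4 Treg markers, these 6 ligands were still lower in Treg cells. Their ratios were 0.195 to 0.474, at least 2-fold. However, *Lta* turned from 0.552 to 1.07 times, and *Cd70* was at 2.56 times instead of 0.825, from 2 UMIs in those Tconv cells. CD8 T cells differed 2-fold from Tconv cells in 4 ligands, lower in *Cd40lg*, *Tnfsf8* and *Tnfsf11* and higher in *Fasl*, against 8.04% of 10231 genes. They differed 2-fold from Treg cells in 4 ligands, higher in *Tnfsf8*, *Tnfsf14* and *Fasl* and lower in *Cd40lg*, against 14.8% of 10714 genes, but *Tnfsf8* was at 1.76 without the upper limit on detected genes and *Cd40lg* at 0.507 with CPM averaged over cells. NKT cells differed 2-fold from Tconv cells in 3 ligands, lower in *Tnfsf8* and *Tnfsf11* and higher in *Tnfsf14*, against 22.3% of 9203 genes. All 9 ligands had at least 20 UMIs in each of these comparisons. Barcodes with more than 2500 genes, left out here, differed from the kept cells of their class. In them, 2 of the 9 ligands were at least 2-fold higher and 3 lower in CD8 (18.3% of genes differed either way), 1 higher and 3 lower in Treg (19.2%) and 1 higher and 6 lower in Tconv cells (34.0%). In a pool of cells, a lower level in a class can come from fewer cells with the transcript or from less of it per cell; shares of cells with a UMI are therefore given after thinning each cell to 1500 UMIs, which left out 109 CD8, 454 Treg, 322 Tconv, 2 NKT and 11 myeloid cells.

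**Figure D1:**
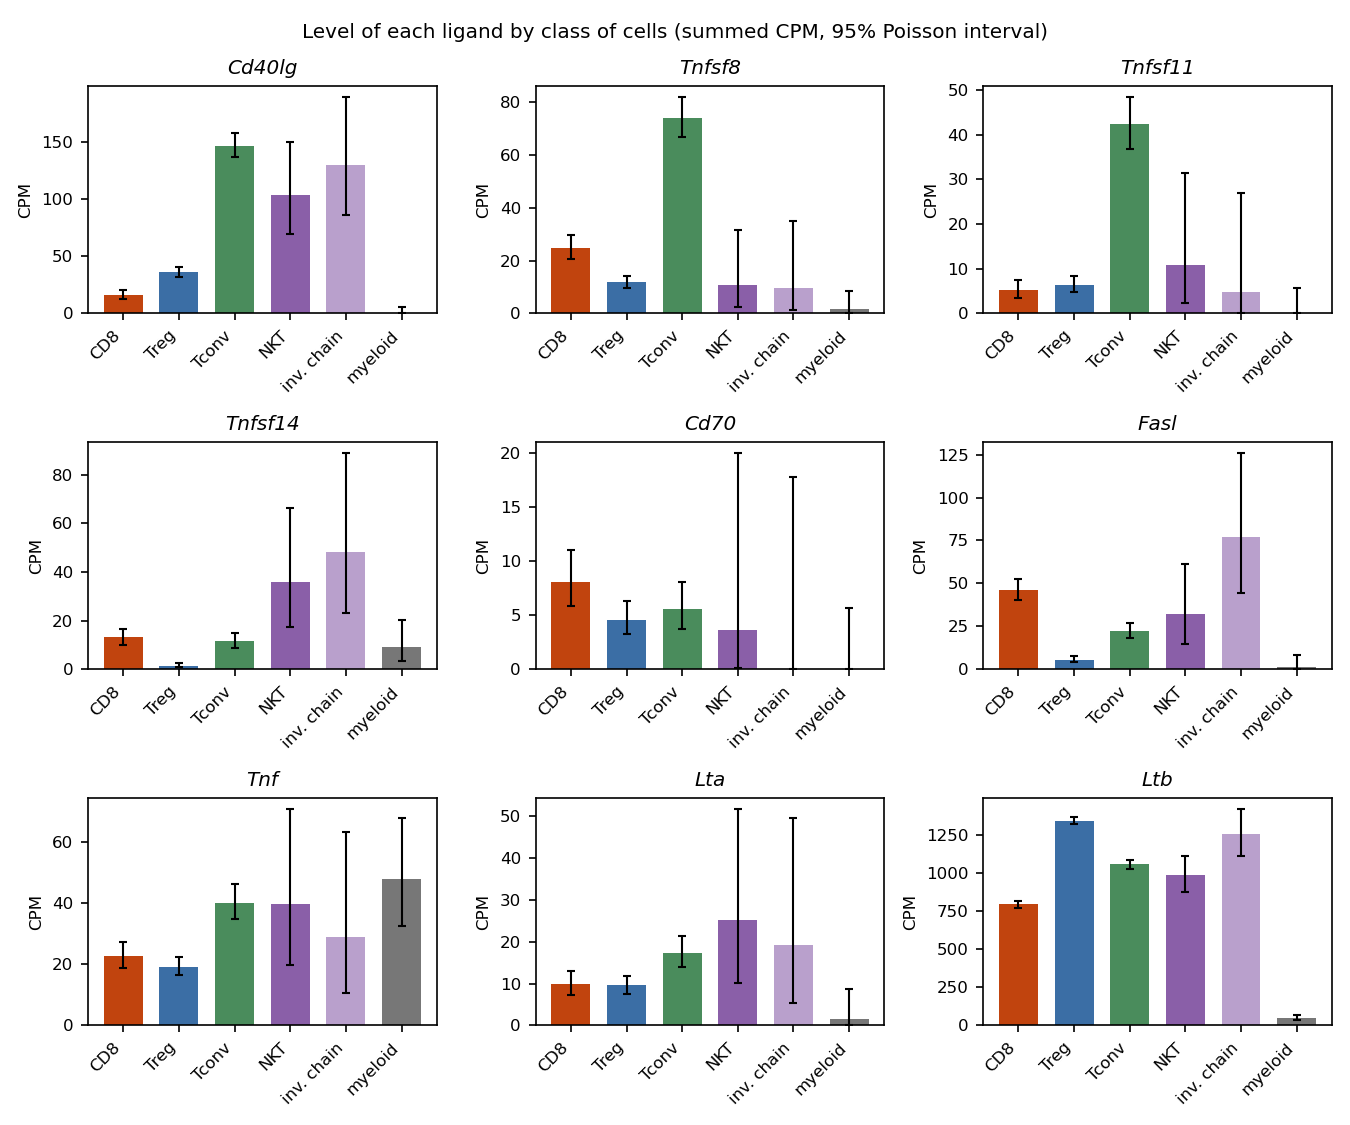
Level of each ligand in CPM (vertical axes, linear from 0 and different for each gene) in CD8, Treg, Tconv and NKT cells, in cells with the invariant alpha chain and in myeloid cells; bars are summed CPM and black lines the 95% Poisson interval. Tconv cells hold the tallest bar for *Cd40lg* (147 CPM), *Tnfsf8* (74.1 CPM) and *Tnfsf11* (42.4 CPM), and cells with the invariant chain that for *Fasl* (77.3 CPM).

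*Cd40lg* encodes CD40 ligand (CD154), by which helper T cells activate dendritic cells, macrophages and B cells through CD40. Its level was 147 CPM (137 to 158) in Tconv, 104 CPM (69.8 to 150) in NKT, 36.2 CPM (32.2 to 40.5) in Treg and 16.2 CPM (12.9 to 20.1) in CD8 T cells. Tconv and NKT cells did not differ beyond counting error, at a ratio of 1.41 (0.977 to 2.13), whereas each later step of the order did. The Treg level was 0.246 times (0.214 to 0.281) and the CD8 level 0.110 times (0.0865 to 0.138) that of Tconv cells. After thinning, a *Cd40lg* UMI was found in 18.2% of Tconv (16.2 to 20.3%), 12.7% of NKT, 4.59% of Treg (3.75 to 5.56%) and 1.56% of CD8 T cells (0.929 to 2.46%); before thinning the shares were 26.9, 29.6, 8.89 and 5.24%. None of 118 thinned myeloid cells had one (0 to 3.08%), so the CD8 share alone is not above what those cells allow, whereas the CD8 level in CPM was at least 2.79 times the myeloid level by its interval. Of 476 Tconv cells with the transcript, 313 had 1 UMI, and the highest cell had 9. The gene lies on chromosome X (ENSMUSG00000031132, 57212143 to 57224042, plus strand, GENCODE vM21 on GRCm38), far from any other gene of the family.

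*Tnfsf8* (CD30 ligand) and *Tnfsf11* (RANKL, which drives osteoclast and dendritic cell function through RANK) shared the Tconv maximum. *Tnfsf8* stood at 74.1 CPM (66.8 to 82.0) in Tconv, 24.7 CPM (20.6 to 29.5) in CD8, 11.7 CPM (9.52 to 14.3) in Treg and 10.8 CPM (2.22 to 31.5) in NKT cells. The CD8 level was 0.334 times (0.270 to 0.410) the Tconv level and 2.11 times (1.60 to 2.78) the Treg level, while Treg and NKT cells did not differ beyond counting error. *Tnfsf11* stood at 42.4 CPM (36.9 to 48.5) in Tconv, 10.8 CPM (2.22 to 31.5) in NKT, 6.41 CPM (4.81 to 8.39) in Treg and 5.15 CPM (3.36 to 7.54) in CD8 T cells, and NKT, Treg and CD8 T cells did not separate from one to the next, while the Tconv level was 3.94 times (1.33 to 19.2) the NKT level; without the upper limit on detected genes the CD8 to Tconv ratio moved from 0.121 to 0.213. Thinned shares were 8.64% of Tconv (7.24 to 10.2%), 3.21% of CD8 and 1.76% of Treg cells for *Tnfsf8*, and 4.77%, 0.695% and 0.742% for *Tnfsf11*, where the Tconv interval began at 3.73%. Unthinned, they were 12.5, 7.54 and 2.61%, and 8.59, 1.90 and 1.84%. Both NKT values rest on 3 UMIs in 2 cells. *Tnfsf8* lies on chromosome 4 (63831308 to 63861347, minus strand) and *Tnfsf11* on chromosome 14 (78277445 to 78308043, minus strand).

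*Fasl* encodes Fas ligand, a death ligand of cytotoxic lymphocytes. It reached 46.3 CPM (40.6 to 52.6) in CD8, 32.3 CPM (14.8 to 61.4) in NKT, 22.3 CPM (18.4 to 26.8) in Tconv and 5.69 CPM (4.18 to 7.56) in Treg cells. The CD8 level was 2.08 times (1.65 to 2.62) the Tconv level and 8.14 times (5.93 to 11.4) the Treg level, and NKT cells lay between CD8 and Tconv cells without separating from either. Without the upper limit on detected genes the ratio of CD8 to Tconv was 1.81, under 2-fold. A thinned *Fasl* UMI was present in 7.21% of CD8 (5.78 to 8.86%), 3.11% of Tconv (2.28 to 4.14%) and 1.07% of Treg cells (0.678 to 1.60%), against 15.3, 5.60 and 1.72% before thinning. The gene is on chromosome 1 (161780689 to 161788495, minus strand).

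*Tnfsf14* (LIGHT, a ligand of HVEM and of the lymphotoxin beta receptor) and *Cd70* (the ligand of the costimulatory receptor CD27) are neighbors on chromosome 17, 39715 bases apart, and *Tnfsf9* lies 38240 bases from *Cd70* on its other side. *Tnfsf14* was highest in NKT cells, at 35.9 CPM (17.2 to 66.1), followed by CD8 at 13.1 CPM (10.1 to 16.6), Tconv at 11.6 CPM (8.77 to 14.9), myeloid at 9.25 CPM (3.39 to 20.1) and Treg cells at 1.57 CPM (0.838 to 2.69). NKT exceeded CD8 by 2.75 times (1.26 to 5.38) and myeloid exceeded Treg by 5.88 times (1.83 to 16.6), and the classes between did not differ beyond counting error. In Treg cells the transcript was nearly absent, with 13 UMIs in 13 of 2609 cells, and the CD8 level was 8.30 times (4.54 to 16.4) the Treg level, or 3.54 times without the upper limit on detected genes. *Cd70* was at 8.11 CPM (5.82 to 11.0) in CD8, 5.58 CPM (3.71 to 8.06) in Tconv, 4.60 CPM (3.25 to 6.31) in Treg and 3.59 CPM (1 UMI) in NKT cells. No neighbors separated in this order, but the CD8 level of *Cd70* was 1.76 times (1.11 to 2.82) the Treg level. Its UMIs were concentrated, since the 5 cells with most of them held 57.1% of the *Cd70* UMIs in Tconv, 46.3% in CD8 and 39.5% in Treg cells. Without the upper limit on detected genes the CD8 level of *Cd70* was 2.61 times the Tconv level and 3.22 times the Treg level, against 1.45 and 1.76 with it. The top 5 Tconv cells for *Cd40lg* held 5.14% of its UMIs there.

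*Tnf*, *Lta* and *Ltb* sit side by side on chromosome 17 next to the major histocompatibility genes. *Tnf* encodes TNF itself, *Lta* lymphotoxin alpha, which as a homotrimer binds the TNF receptors, and *Ltb* lymphotoxin beta, which anchors lymphotoxin alpha in the membrane and turns it toward the lymphotoxin beta receptor. *Lta* (35203165 to 35205351) and *Tnf* (35199381 to 35202007) lie on the minus strand 1158 bases apart, and *Ltb* (35194439 to 35196320) lies on the plus strand 3061 bases from *Tnf*. Despite this closeness, Treg and Tconv cells stood in another order for *Ltb* than for *Tnf* and *Lta*. *Ltb* was highest in Treg cells, at 1342 CPM (1317 to 1367), then Tconv at 1056 CPM (1027 to 1085), NKT at 985 CPM (871 to 1108) and CD8 T cells at 792 CPM (767 to 817), and of these neighbors Tconv and NKT cells alone did not differ beyond counting error. Counted with at most 1 UMI per cell, which flattens an abundant gene, the Treg to Tconv ratio turned from 1.27 (1.23 to 1.31) to 0.956. Its thinned share was 75.2% of Treg (73.3 to 77.0%), 69.9% of Tconv (67.5 to 72.3%) and 61.7% of CD8 T cells (58.8 to 64.5%), against 9.32% of myeloid cells. Unthinned, the shares were 85.8, 80.4, 79.6 and 19.4%.

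*Tnf* ran the other way among CD4 cells, at 40.0 CPM (34.7 to 46.0) in Tconv and 19.1 CPM (16.3 to 22.3) in Treg cells, a Treg to Tconv ratio of 0.478 (0.385 to 0.591). CD8 T cells had 22.8 CPM (18.8 to 27.3), NKT cells 39.5 CPM (19.7 to 70.7) and myeloid cells 47.8 CPM (32.5 to 67.8), and no neighbors in this order separated. With CPM averaged over cells in place of summed UMIs, the Treg to Tconv ratio of *Tnf* was 0.556, no longer 2-fold. *Lta* was at 25.2 CPM (10.1 to 51.8) in NKT, 17.3 CPM (13.9 to 21.4) in Tconv, 9.90 CPM in CD8 and 9.56 CPM (7.57 to 11.9) in Treg cells, and Tconv exceeded CD8 by 1.75 times (1.22 to 2.53). Thinned shares of *Tnf* were 5.32% of Tconv (4.22 to 6.61%), 3.21% of CD8, 2.37% of Treg and 9.32% of myeloid cells (4.75 to 16.1%), against 8.54, 7.38, 4.71 and 16.3% unthinned. For *Lta* the thinned shares, 1.66% of Tconv, 1.39% of CD8 and 1.44% of Treg cells, had overlapping intervals, and unthinned they were 3.73, 3.57 and 2.72%.

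The bases just upstream of these 3 neighbors are shown because the genes share a locus. Treg and Tconv cells stood in another order for *Ltb* than for *Tnf* and *Lta*. RefSeq (GRCm38.p6) gave a promoter for 7 of the 9 ligands, and the stretches printed end where the first annotated transcript base in either RefSeq or GENCODE begins, at chr17:35194257-35194438 for *Ltb* (plus strand), chr17:35202008-35202257 for *Tnf* and chr17:35205352-35205601 for *Lta* (both minus strand). Capitals mark GGAAA on either strand (TTTCC on the strand shown), the core letters of NFAT sites, which also occur within some NF-κB sites.
Ltb: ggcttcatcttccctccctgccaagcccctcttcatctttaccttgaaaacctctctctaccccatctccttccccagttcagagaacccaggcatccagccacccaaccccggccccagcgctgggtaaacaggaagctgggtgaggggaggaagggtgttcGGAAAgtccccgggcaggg
Tnf: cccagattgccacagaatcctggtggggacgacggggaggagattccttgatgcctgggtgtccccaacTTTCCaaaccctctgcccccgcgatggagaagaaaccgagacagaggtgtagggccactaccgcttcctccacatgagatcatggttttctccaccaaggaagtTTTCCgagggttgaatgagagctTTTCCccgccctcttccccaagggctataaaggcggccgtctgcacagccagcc
Lta: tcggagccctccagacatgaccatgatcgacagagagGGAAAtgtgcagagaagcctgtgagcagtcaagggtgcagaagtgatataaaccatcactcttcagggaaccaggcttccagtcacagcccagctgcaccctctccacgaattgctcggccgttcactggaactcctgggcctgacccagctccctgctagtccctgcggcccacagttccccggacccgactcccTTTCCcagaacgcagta
The *Tnf* stretch held 3 matches, the *Lta* stretch 2 and the *Ltb* stretch 1, and 55.6% of 32851 promoter windows of 250 bases held at least 1. The κB consensus matched once, in *Ltb*, 87 to 78 bases before the RefSeq start and over the GGAAA match, and in none of the other 6 promoters; it occurred in 7.25% of all windows. TATAAA on the strand of the gene lay 29 to 24 bases before the start of *Tnf* and 167 to 162 bases before that of *Lta*, and 7.59% of windows held it. These matches are descriptions of letters, not sites of binding.

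Cells with the invariant alpha chain differed from Tconv cells in some ligands and not detectably in others. Among these 62 cells, *Fasl* reached 77.3 CPM (44.2 to 126), 3.68 times (2.03 to 6.27) the level in Tconv cells without the chain, and *Tnfsf14* reached 48.3 CPM (23.2 to 88.9), 4.43 times (2.01 to 8.79) that level. In cells thinned to the same depth, *Fasl* was found in 13.3% of the 60 cells with the chain and 3.11% of Tconv cells, but *Tnfsf14* had 1 UMI, at 11.1 CPM (0.281 to 61.9), the same as the thinned Tconv level of 11.1 CPM, so its excess was not seen there. *Cd40lg*, at 130 CPM (86.0 to 190), did not differ from those Tconv cells beyond counting error, at a ratio of 0.882 (0.577 to 1.29). *Tnfsf8* had 2 UMIs and *Tnfsf11* 1 UMI, ratios of 0.129 (0.0156 to 0.471) and 0.113 (0.00285 to 0.636), and *Cd70* had 0, which allows up to 14.5 CPM. *Cd70* was at 5.65 CPM in those Tconv cells, below what 0 allows, so it shows no direction, although it counts among the 5 of 9 ligands past 2-fold, against 27.4% of genes.

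The other members of the family set off the T cell ligands. *Tnfsf10* (TRAIL) was at 32.4 CPM in Treg, 26.7 CPM in CD8 and 22.3 CPM in Tconv cells but had 1 UMI in myeloid cells, and *Tnfsf9* (4-1BB ligand) was at 18.2, 14.1 and 17.9 CPM in the same order and 26.2 CPM (17 UMIs) in myeloid cells. *Tnfsf12* (TWEAK) and *Tnfsf13* (APRIL) reached 15.4 and 38.5 CPM in myeloid cells and at most 2.37 CPM in these T cell classes. *Tnfsf4* (OX40 ligand) had 17 UMIs in CD8, 4 in Treg and 6 in Tconv cells. *Tnfsf13b* (BAFF) and *Tnfsf15* had at most 6 UMIs in any class, and *Tnfsf18* and *Eda* had 0 in every class, which allows up to 0.594 CPM in CD8, 0.363 CPM in Treg, 0.598 CPM in Tconv and 10.8 CPM in NKT cells.

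The receptors *Cd40*, *Tnfrsf11a* and *Ltbr* had their highest level in myeloid cells and were at a few CPM or less in CD8, Treg and Tconv cells, others were highest in Treg cells, and *Fas* was found throughout. *Cd40* was at 47.8 CPM (31 UMIs) in myeloid cells and at 1.19, 3.15 and 2.19 CPM in CD8, Treg and Tconv cells, and *Tnfrsf11a* (RANK) was at 21.6 CPM in myeloid cells and below 1 CPM in those T cells, while their ligands had 0 UMIs in myeloid cells. *Ltbr*, the lymphotoxin beta receptor, was at 60.1 CPM in myeloid cells and at most 1.78 CPM in CD8, Treg and Tconv cells. *Tnfrsf8* (CD30) was a Treg transcript, at 22.3 CPM (19.2 to 25.7), 6.21 times (3.82 to 10.7) the Tconv level and with 0 UMIs (up to 4.62 CPM) in myeloid cells, while its ligand *Tnfsf8* was lowest in Treg among the 3 large T cell classes. *Cd27* was 2.24 times (2.07 to 2.44) and *Tnfrsf1b* (TNF receptor 2) 2.56 times (2.34 to 2.81) higher in Treg than in Tconv cells, at 334 and 289 CPM. *Tnfrsf1a* (TNF receptor 1) was at 151 CPM in myeloid, 30.9 CPM in Treg, 25.5 CPM in Tconv and 18.6 CPM in CD8 T cells. *Fas* was found in all classes. It was at 27.1 CPM in CD8, 40.8 CPM in Treg, 34.9 CPM in Tconv, 61.1 CPM (35.6 to 97.8) in NKT and 35.4 CPM in myeloid cells. *Tnfrsf14* (HVEM) was at 6.16 CPM (1.68 to 15.8) in myeloid cells and 3.98 CPM or less in CD8, Treg and Tconv cells. It had 0 UMIs (up to 10.8 CPM) in NKT cells. *Tnfrsf11b*, the decoy receptor of RANKL, had 1 UMI, in Treg cells, over all classes together. The shedding proteases *Adam10* and *Adam17* were at 59.7 and 53.9 CPM in Treg and 33.8 and 24.7 CPM in CD8 T cells.

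**Figure D2:**
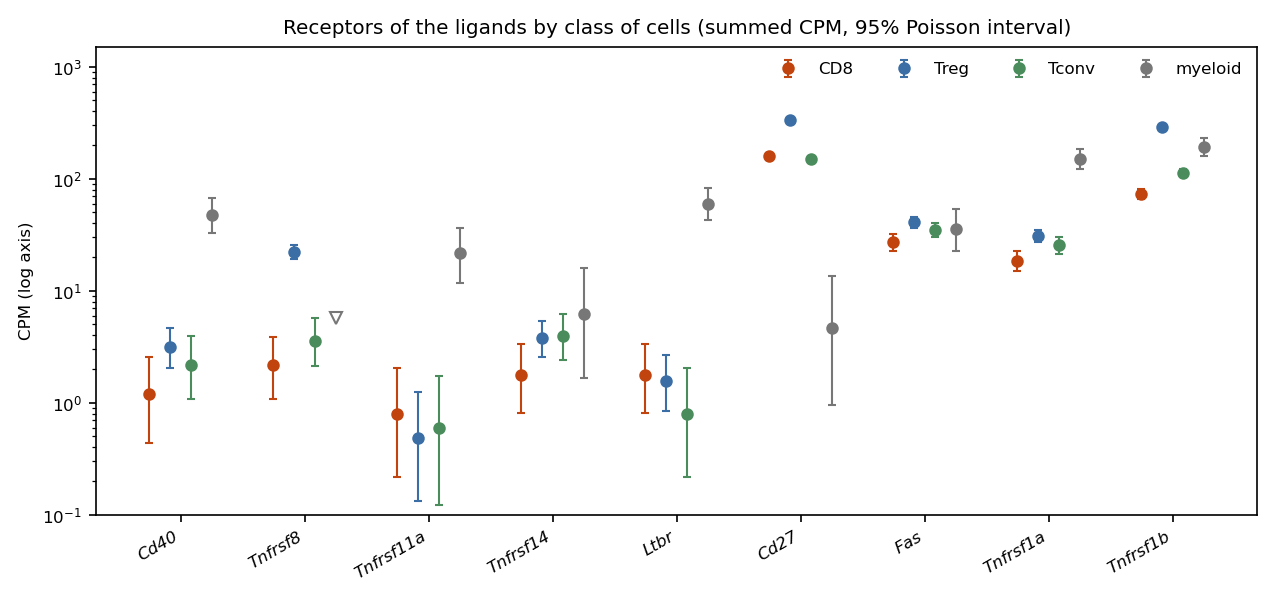
Receptors of the ligands in CPM (vertical axis, log scale) in CD8, Treg, Tconv and myeloid cells; points are summed CPM, lines the 95% Poisson interval, and an open triangle the upper bound where no UMI was found. *Cd40*, *Tnfrsf11a* and *Ltbr* are at 47.8, 21.6 and 60.1 CPM in myeloid cells and near the bottom in T cells, and *Tnfrsf8* is at 22.3 CPM in Treg cells.

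Within a class, cells were also compared by activation genes. Those with a UMI of *Ccl1* or *Csf2*, effector cytokine genes, had higher levels of *Tnfsf8*, *Tnfsf11* and *Cd70* in Tconv and of *Cd70* in CD8 and Treg cells. Among the 42 such Tconv cells, *Tnfsf11* reached 215 CPM against 36.1 CPM in other Tconv cells, a ratio of 5.94 (4.07 to 8.47), and *Tnfsf8* 192 CPM against 69.8 CPM, a ratio of 2.75 (1.87 to 3.92). *Cd70* reached 73.4 CPM, against 15 UMIs in all other Tconv cells, a ratio of 23.7 (10.4 to 53.4), and its 13 UMIs came from 3 cells. *Lta* (2.39 times, 0.932 to 5.16) and *Fasl* (0.497 times, 0.0595 to 1.84) also passed 2-fold with intervals that hold 1, so that 5 of 9 ligands were 2-fold apart, against 28.3% of genes. Counted with at most 1 UMI per cell, 2 ligands were, *Tnfsf11* at 2.77 and *Cd70* at 5.86. In thinned cells the *Tnfsf11* ratio was 9.56 from 10 UMIs in 21 such cells, and *Cd70* had too few UMIs to be compared. In the 53 CD8 T cells of this kind, *Cd70* was at 45.6 CPM (15 UMIs in 8 cells) against 5.50 CPM, 8.29 times (4.08 to 16.2), the only ligand of the 9 past 2-fold, against 19.8% of genes, and 4.36 times without the upper limit on detected genes. *Ltb* was at 0.728 times (0.627 to 0.842) the level of the other cells in CD8, 0.682 times (0.568 to 0.813) in Tconv and 0.717 times (0.575 to 0.884) in Treg cells; in thinned CD8 T cells its ratio was 1.05. In the 24 such Treg cells *Tnfsf8* was at 98.7 CPM, from 9 UMIs in 2 cells, a ratio of 9.17 (4.06 to 18.2), *Cd70* was at 7.68 times (1.51 to 24.4) from 3 UMIs in 2 cells, and *Lta* was at 2.33 times (0.277 to 8.70) from 2 UMIs. These cells were deeper, with medians of 6142 against 3338 UMIs in CD8 and 3620 against 2471 UMIs in Tconv cells; the part of depth in these ratios was not tested beyond the thinned values.

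*Nr4a1* and *Egr2*, genes switched on by TCR signals, were used in the same way. Cells with a UMI of either were deeper in each class. Median UMIs were 3787 against 3296 in CD8, 3294 against 2492 in Treg and 2900 against 2375 in Tconv cells. The part of depth in the ratios that follow was not tested beyond the thinned values. CD8 T cells with a UMI of either (412 cells) had 26.3 CPM of *Tnfsf14* against 6.05 CPM in the other 848 cells, 4.36 times (2.53 to 7.77), the only ligand of 9 past 2-fold, where 4.03% of genes were. In thinned cells this ratio was 2.42. *Tnf* and *Fasl* were 1.62 times (1.10 to 2.37) and 1.44 times (1.10 to 1.88) higher there. The *Tnf* ratio was 2.98 in thinned CD8 T cells, from 17 and 23 UMIs, and 1.19 without the upper limit on detected genes. In Tconv cells (420 against 1349) *Cd40lg* was at 200 CPM against 126 CPM, 1.58 times (1.36 to 1.84), and *Tnf* at 58.8 CPM against 32.6 CPM, 1.80 times (1.35 to 2.41). *Tnfsf8* (1.29 times, 1.03 to 1.60) and *Tnfsf11* (1.45 times, 1.08 to 1.93) were also higher there. Without the upper limit on detected genes these Tconv ratios were 1.03 for *Tnfsf8*, 1.15 for *Tnfsf11*, 1.32 for *Cd40lg* and 1.44 for *Tnf*. With at most 1 UMI per cell they were 1.14, 1.09, 1.09 and 1.32 in the same order. In thinned cells *Tnfsf8* was at 1.82, *Cd40lg* at 1.72 and *Tnf* at 1.41, and the *Tnfsf11* ratio did not fall. The 2 of 9 ligands past 2-fold in Tconv cells were *Tnfsf14*, at 2.04 (1.17 to 3.54), and *Cd70*, lower at 0.302 (0.0583 to 0.988), against 3.96% of genes, and counted with at most 1 UMI per cell neither was. In thinned cells the *Tnfsf14* ratio turned to 0.701. In Treg cells (876 against 1733) *Cd70* was at 8.07 CPM against 2.38 CPM, 3.39 times (1.65 to 7.37), the only one of 8 past 2-fold, against 2.46% of genes, and *Ltb* was lower, at 0.817 times (0.786 to 0.850).

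**Figure D3:**
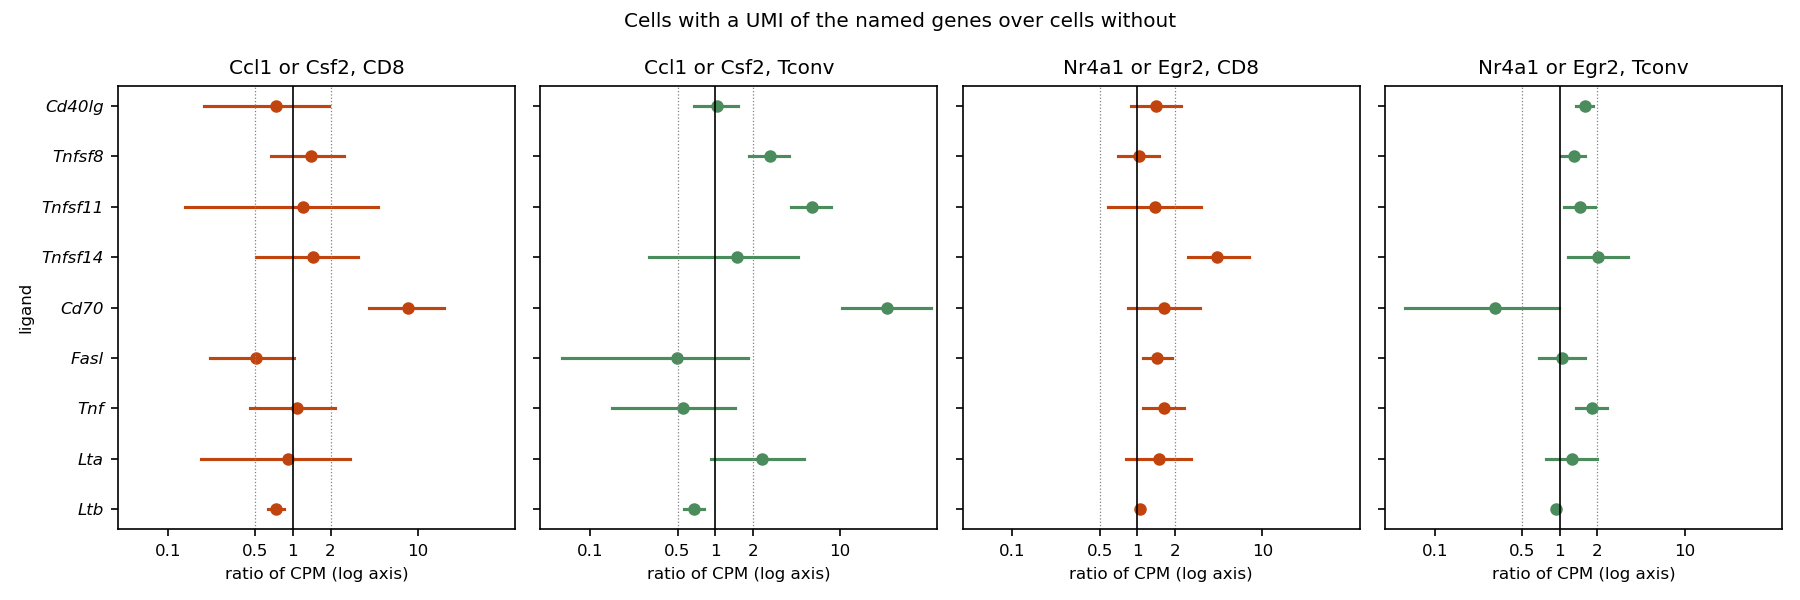
Ratio of ligand levels (horizontal axis, log scale) between cells with and without a UMI of *Ccl1* or *Csf2* (left pair of panels) or of *Nr4a1* or *Egr2* (right pair), in CD8 and Tconv cells; points are ratios of summed CPM, lines the 95% counting interval and dotted lines 2-fold. *Cd70* stands farthest to the right in both *Ccl1* or *Csf2* panels, at 8.29 and 23.7, and *Tnfsf14* in the *Nr4a1* or *Egr2* panel of CD8 T cells, at 4.36.

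Expanded clones, of at least 2 cells of the class, were compared with clones of 1 cell. The 200 CD8 T cells of 73 expanded clones had *Fasl* at 72.0 CPM against 37.9 CPM, 1.90 times (1.39 to 2.57), with UMIs in 36 clones, and *Ltb* at 616 CPM against 864 CPM, 0.713 times (0.651 to 0.779). *Cd70* was also higher there, at 16.7 CPM against 7.21 CPM, 2.32 times (1.14 to 4.58), whereas *Cd40lg* (0.452 times, 0.186 to 0.949) and *Tnfsf8* (0.541 times, 0.276 to 0.979) were lower. The 63 Tconv cells of 27 expanded clones had *Cd40lg* at 252 CPM against 141 CPM, 1.79 times (1.33 to 2.36), in 19 clones, and *Tnf* at 81.0 CPM against 39.7 CPM, 2.04 times (1.18 to 3.34), in 10 clones. *Cd40lg* thus lay on opposite sides of 1 in expanded CD8 and Tconv cells, a difference that was not tested. In Treg cells *Ltb* was 1.13 times (1.03 to 1.24) higher in expanded clones, and *Cd40lg* was at 17.7 CPM in expanded and 37.5 CPM in other clones, 0.471 times (0.171 to 1.04). There 4 of 8 ligands passed 2-fold, all lower: *Cd40lg*, *Tnfsf8*, *Tnfsf11* and *Lta*, with 6, 2, 0 and 1 UMIs in expanded clones. In Tconv cells 4 of 9 did, 2 higher and 2 lower (*Cd70*, *Fasl*, *Tnf* and *Lta*). In CD8 T cells 3 of 9 did, 1 higher and 2 lower (*Cd70*, *Cd40lg* and *Tnfsf11*). The share of all genes past 2-fold was not taken for clones, so these counts do not set the ligands apart from other genes. Cycling CD8 T cells, with at least 2 UMIs of *Mki67*, *Top2a*, *Cdk1* and *Birc5* together, had less *Fasl* (22.8 CPM against 50.4 CPM, 0.453 times, 0.259 to 0.742), *Tnfsf8* (0.343 times, 0.135 to 0.728) and *Ltb* (0.763 times, 0.692 to 0.841). *Lta* had 0 UMIs in cycling CD8 and Tconv cells, against 11.6 and 18.4 CPM in the others; with 3 UMIs allowed, it was at least 2.89-fold and 1.85-fold lower. *Tnfsf8* was also lower in cycling Tconv cells (0.522 times, 0.267 to 0.924), and *Cd40lg* in cycling Treg cells (0.588 times, 0.354 to 0.926). Cycling cells were deeper, with medians of 6472 against 3220 UMIs in CD8, 4917 against 2698 in Treg and 4818 against 2462 in Tconv cells. The part of depth in the cycling ratios was not tested. Treg cells with a UMI of *Il1rl1*, the IL-33 receptor, or of *Areg* (1072 cells) had *Cd40lg* at 39.9 CPM against 33.3 CPM in the other 1537, 1.20 times (0.947 to 1.51), and *Ltb* at 1257 CPM against 1407 CPM, 0.894 times (0.860 to 0.928).

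Apart from *Ltb*, few thinned cells held UMIs of more than 1 ligand. No UMI of the 8 ligands other than *Ltb* was found in 64.6% of Tconv (62.1 to 67.1%), 81.8% of CD8 and 88.6% of Treg cells, and 2 or more of these ligands were found in 7.46% of Tconv (6.16 to 8.94%), 1.74% of CD8 and 1.21% of Treg cells. In Tconv cells *Tnfsf8* and *Tnfsf11* were found together in 17 cells, where the product of their shares gives 5.96, and *Tnfsf11* and *Lta* in 5 cells, where it gives 1.14. *Cd40lg* and *Tnfsf8* met in 18 Tconv cells against a product of 22.7, but in 10 Treg cells against 1.75. *Cd40lg* and *Ltb* met in 182 Tconv cells against 184.

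Tumor of origin could be read for few cells. The hashtag library held 1730 tag UMIs in all, against 22837655 that matched no tag. Cells were assigned from as few as 1 tag UMI, and only where every tag UMI present pointed to the same tumor. That left 245 B16 and 55 B16IL33 Treg cells, 164 and 17 Tconv cells and 103 and 19 CD8 T cells. With at least 2 tag UMIs, 15 B16 and 1 B16IL33 CD8 T cells were left. How many cells a stray tag UMI placed in the wrong tumor was not tested. *Ltb* in Treg cells was at 1309 CPM in B16IL33 and 1588 CPM in B16 tumors, a ratio of 0.824 (0.716 to 0.946), and in Tconv and CD8 T cells the ratios were 0.780 (0.563 to 1.06) and 0.873 (0.661 to 1.14). *Cd40lg* in Tconv cells had 3 UMIs in B16IL33 and 64 in B16 cells, a ratio of 0.482 (0.0969 to 1.47), and *Tnf* had 0 and 24. These were the 2 of 4 ligands with enough UMIs that passed 2-fold in Tconv cells, against 27.0% of genes, and 0 of 2 did in Treg (14.9% of genes) and in CD8 T cells (16.1%). Since 0 allows 3 UMIs, 67.5 CPM, and *Tnf* was at 52.5 CPM in B16 Tconv cells, it shows no direction. The *Ltb* ratio in Treg cells was 1.08 with the tags numbered 1 alone, 0.712 with those numbered 2 alone, 1.40 with at least 2 tag UMIs and 1.01 without the upper gene limit, and the B16IL33 cells were shallower (median 2467 against 3401 UMIs). A difference between the tumors in these ligands was not detectable at this depth.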

How the data were processed

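Per the file headers, the authors deposited raw counts of UMIs per gene and barcode from Cell Ranger 3.1.0 on a combined human and mouse (mm10) reference; the submitters' processing notes name Cell Ranger 6.1.1. Raw counts of tag UMIs and of UMIs per filtered TCR contig were deposited likewise. Barcodes with 200 to 2500 genes and under 5% mitochondrial UMIs were kept, the limits the methods of the study give. UMIs were summed over the cells of a class and scaled to CPM; the depth and intervals are given with the results. Cells were thinned to 1500 UMIs in 1 seeded draw. Genes with at least 20 UMIs in both groups together were compared, and 2-fold either way was the call. UMIs on human genes (8562) were left out. No doublet caller was run; cells with at least 2 productive beta chains were left out as an alternative. A clone is a Cell Ranger clonotype. Coordinates are GENCODE vM21 and promoters RefSeq, both on GRCm38. Genes named were the 9 ligands, other family ligands, receptors, proteases, markers and the genes of the activation, cycling and *Il1rl1* or *Areg* rules. A planned comparison of resting with checkpoint cells, and the genes most like each ligand over those states, are not reported here. The members and lists were chosen with earlier results of these data known. Other filters, class rules, thinned counts, CPM averaged over cells and at most 1 UMI of a gene per cell were tried as alternatives. The ratios and intervals were tried on simulated independent Poisson counts, the model that the intervals assume. That trial cannot show how they hold where UMIs are concentrated in few cells. Python 3.11.15, NumPy 2.4.6, SciPy 1.17.1, pandas 2.3.3 and Matplotlib 3.10.9 were used.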

Additional observations from a re-analysis of the deposited data

Results flagged for a closer look

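Barcodes with more than 2500 detected genes were left out of the comparisons, and ligands differed in them from the kept cells of the same class in both directions. In CD8 T cells (278 such barcodes, median 14536 UMIs) *Cd70* was 3.40 times (2.37 to 4.97) and *Tnfsf11* 2.49 times (1.54 to 4.12) the kept level, at 27.6 and 12.8 CPM. In Treg cells (224 barcodes) *Tnfsf14* was 3.07 times (1.34 to 7.09), and in Tconv cells (44 barcodes) *Cd70* was 2.56 times (1.11 to 5.44) the kept level. *Tnfsf14* in CD8 T cells was at 0.271 times the kept level, opposite to Treg cells, a difference that was not tested. *Cd40lg* was at 0.245, 0.533 and 0.310 times, *Tnfsf8* at 0.393, 0.440 and 0.424 times, *Fasl* at 0.563, 0.424 and 0.256 times and *Ltb* at 0.501, 0.496 and 0.328 times the kept level in CD8, Treg and Tconv cells. The part of doublets in these values was not tested.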

How the results depend on the processing

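No test was made, paired or unpaired. Ratios within a tag number were taken as alternatives and are values alone. Of 17 ligand ratios between classes past 2-fold, 13 stayed past it under each alternative run; *Fasl* in CD8 over Tconv (lowest 1.81), *Tnfsf8* in CD8 over Treg (1.76), *Cd40lg* in CD8 over Treg (0.507) and *Tnf* in Treg over Tconv (0.556) did not. Without the gene limit *Cd70* passed it in CD8 over Tconv (2.61) and over Treg (3.22). The number of ligands 2-fold apart between NKT and Tconv cells went from 3 to 5 with NKT cells taken by the invariant chain, *Cd70* at 0 UMIs among them. Between tumors it went from 0 to 1 in CD8 T cells with at least 2 tag UMIs (*Ltb* at 0 UMIs in 1 cell) and to 2 without the upper gene limit, and in Tconv cells from 2 to 0 with the tags numbered 1, to 1 with the tags numbered 2 (*Cd40lg* at 0 UMIs in 9 cells) and to 1 without the gene limit; at least 2 tag UMIs left no Tconv comparison. Alternatives for the activation genes were chosen after seeing the data. For *Ccl1* or *Csf2* the number in CD8 T cells went from 1 to 2 without the gene limit and 4 in thinned cells (each at 0 UMIs in 25 cells, *Cd70* not among them), and in Tconv cells from 5 to 2 with at most 1 UMI per cell; *Fasl* there turned from 0.497 to 1.06 without the gene limit and 1.51 in thinned cells. For *Nr4a1* or *Egr2* it went from 1 to 2 in CD8 T cells under both, and in Tconv cells from 2 to 1 without the gene limit, 0 with at most 1 UMI per cell and 0 in thinned cells, where *Tnfsf14* turned from 2.04 to 0.701. No alternative was run for the ratios of expanded clones, cycling cells, Treg cells with *Il1rl1* or *Areg*, or Treg cells with *Ccl1* or *Csf2*. Among the ratios with alternatives, 42 were clear of 1 by counting error, and 5 of them turned in at least 1 alternative: *Lta* in Treg over Tconv (0.552 to 1.07 without Tconv cells with a Treg marker, chosen after seeing the data), the *Tnfsf14* ratio above, *Ltb* in Treg over Tconv (1.27 to 0.956 with at most 1 UMI per cell), *Ltb* between tumors in Treg cells (0.824 to 1.40, 1.08 and 1.01) and *Ltb* in CD8 T cells with *Ccl1* or *Csf2* (0.728 to 1.05 in thinned cells). Other counts that had alternatives stayed within 1.5 times. The causes of these changes were not tested. Depth limits NKT cells, where 1 to 11 UMIs stand behind 7 of the ligands, and cells given a tumor.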
